A study of Mus musculus with 9 samples.

Results

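The transporters that carry amino acids, small peptides and related amines across the membranes of intestinal epithelial cells were followed in WT organoids and in tumoroids of the mouse. They were chosen by symbol, as the measured genes of the solute carrier families Slc1a, Slc3a, Slc6a, Slc7a, Slc15a, Slc36a, Slc38a and Slc43a other than Slc7a11. The count table holds 50600 genes, of which 72 carried such a symbol, and 64 were left after Slc7a11 and 7 genes without any count were set aside, out of 25054 genes with at least 1 count. Of the 64, 62 encode transporters or their partner chains, and 2 (Slc6a19os and Slc7a6os) are named for lying opposite a transporter gene.

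RNA was sequenced from 9 libraries in 3 groups of 3. The organoids were grown from the small intestine of WT mice with the strain label C57BL/6, and were kept for 24 hr in conditioned medium (cM), that is, medium taken from other cultures and mixed with fresh organoid medium. In 3 libraries the title names medium of tumoroids (T-cM organoids below) and in 3 it names medium of WT cultures (WT-cM organoids). For all 6 organoid libraries the treatment field of the labels names the opposite medium, so every direction between these groups follows the titles and would turn round if the treatment field were right. The tumoroids were untreated cultures of intestinal tumour cells from older mice carrying the Apc1638N/+ allele, with the strain label MIX, and T-cM came from such tumoroids. Per the study's methods they grew without the R-spondin that organoids received, whereas the growth protocol in the labels lists it for every culture. Genotype, strain, age and medium therefore cannot be told apart between tumoroids and organoids. Per the study's methods the replicates came from different mice, and same-numbered organoid libraries of the 2 media deviated together, so they were treated as 3 pairs.

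Dietary protein reaches the enterocyte as free amino acids and as di- and tripeptides. The brush border takes up neutral amino acids through sodium-coupled carriers of the Slc6 family, cystine and cationic amino acids through the Slc3a1-Slc7a9 pair, and peptides through the proton-coupled Slc15a1, and the basolateral membrane passes amino acids on through exchangers that pair with Slc3a2 and through facilitated carriers of the Slc43 family. Dividing cells rely on a different set, among them Slc7a5 with Slc3a2, Slc1a5 and the Slc38 carriers, many of which are induced through ATF4 when amino acids run short.

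Library totals ran from 16541635 to 25170966 counts, and a floor of 3 counts stood for 0.103 to 0.204 CPM (counts scaled to a common library total with TMM factors). The 64 genes took 0.310 to 0.438% of the counts in organoids and 0.189 to 0.322% in tumoroids. In all, 44 of the 64 reached 1 deposited TPM (a level corrected for gene length) in at least 1 library and were tested among 16208 genes. The other 20 had at most 0.65 TPM, and 18 of them had no library above 10 counts. Summed CPM of 8 epithelial markers was 9905 to 12153 in organoids and 6975 to 7725 in tumoroids, so both kinds of culture carried epithelial RNA, whereas 10 markers of absorptive enterocytes summed to 16328 to 32139 in organoids and to 53.8 to 219 in tumoroids.

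Members with a searched motif in the promoter are shown before the values. Of the 64 members 48 matched a symbol in the RefSeq promoter table (build GRCm38.p6, 250 bases before to 50 after each start), with 69 promoters. TGATGNAA, the core of the amino acid response element bound by ATF4, was present on either strand in 5 of the 69 (7.25%, against 3.97% of all 32851 promoters). These 5 belong to 4 members, since 2 of them are overlapping promoters of Slc7a7 that share a match, and of the 4 Slc15a5 and Slc6a21 were too low to be tested. CAAAGTNCA, a motif of the enterocyte factor HNF4, was present in 1 of the 69 (1.45%, against 1.41%). The 3 promoters below belong to tested members with a match. Each is given 5′ to 3′ on the strand of its gene, from 200 bases before to 20 after the start, with the match in capitals. That of Slc3a1 lies at chr17:85028147-85028366 on the plus strand, that of Slc1a4 at chr11:20332694-20332913 on the minus strand, where the match is in the opposite orientation, and that of Slc7a7, 1 of its starts, at chr14:54417925-54418144 on the minus strand.
Slc3a1: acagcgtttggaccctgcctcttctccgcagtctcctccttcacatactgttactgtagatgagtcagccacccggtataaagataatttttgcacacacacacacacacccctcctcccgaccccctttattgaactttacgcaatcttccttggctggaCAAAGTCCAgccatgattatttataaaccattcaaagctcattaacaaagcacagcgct
Slc1a4: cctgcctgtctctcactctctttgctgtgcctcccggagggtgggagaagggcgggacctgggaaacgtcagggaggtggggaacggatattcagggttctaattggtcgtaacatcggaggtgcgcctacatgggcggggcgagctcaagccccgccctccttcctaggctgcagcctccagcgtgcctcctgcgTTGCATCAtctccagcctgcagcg
Slc7a7: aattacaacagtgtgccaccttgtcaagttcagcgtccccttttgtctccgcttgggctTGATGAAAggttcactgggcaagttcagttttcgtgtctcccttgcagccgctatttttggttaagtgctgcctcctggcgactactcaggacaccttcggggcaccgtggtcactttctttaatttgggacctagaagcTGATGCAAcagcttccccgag
A match is a description of the letters and not a bound site. Slc3a1 and Slc7a7 were lower in tumoroids and Slc1a4 was higher, as set out below.

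Per length, the leading members were brush border and taurine carriers in organoids and growth-associated carriers in tumoroids. Slc3a1 had the highest mean of the 64 in organoids, at 334 ± 52.9 TPM (SD, n = 6), followed by the taurine transporter Slc6a6 at 232 ± 69.3 TPM, Slc6a19 at 226 ± 97.7 TPM and Slc6a20a at 165 ± 19.8 TPM. Slc6a6 was above Slc6a20a in each of the 6 libraries, whereas Slc6a19 lay above Slc6a6 in 1 of them and on either side of Slc6a20a. In tumoroids the highest mean was that of Slc3a2, at 202 ± 80.8 TPM (SD, n = 3), followed by Slc38a2 at 179 ± 73.5 TPM, Slc1a5 at 116 ± 36.3 TPM, Slc7a5 at 113 ± 51.6 TPM and Slc38a1 at 107 ± 74.8 TPM, again with overlapping spreads. Slc3a1 was the fifteenth of the members there, at 25.6 ± 16.2 TPM, and Slc6a19 was at 2.11 ± 1.90 TPM.

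**Figure D1:**
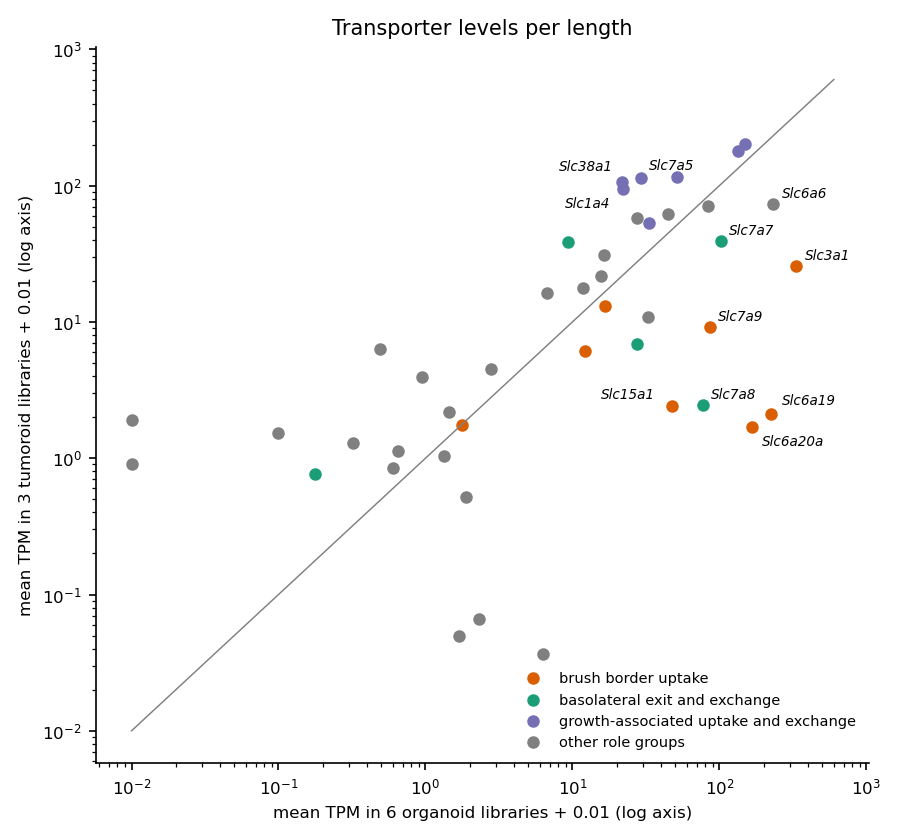
Mean TPM of the 44 tested members in the 6 organoid libraries (horizontal axis) and the 3 tumoroid libraries (vertical axis), both log axes after adding 0.01, with the line of equal level. Slc3a1 at 334 and 25.6 TPM and Slc6a19 at 226 and 2.11 TPM lie far below the line, and Slc38a1 at 21.7 and 107 TPM lies above it.

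The comparison of tumoroids with organoids of both media asked how the tumour cells that made the T-cM differ from normal epithelium, and does not depend on which medium label is right. Of the 44 members tested, 28 passed edgeR's quasi-likelihood test at a Benjamini-Hochberg adjusted p under 0.05, 12 higher in tumoroids (29.6% of all genes tested were) and 16 lower (20.8% of all genes). With a fold change above 2 as well, 10 were higher (21% of all genes) and 14 lower (12.1% of all genes). Of the 12 that were higher, 5 (Slc6a12, Slc38a4, Slc7a3, Slc43a1 and Slc43a3) reached 1 TPM in tumoroids alone, and of the 16 that were lower, 3 (Slc6a3, Slc1a3 and Slc7a15) did so in organoids alone, so these 8 entered the test through the cultures in which they were high and are no support for a direction. The tumoroid and organoid libraries did not overlap for 22 of the 44, against 45.8% of all genes. The median log2 fold change was -0.05 over the members and 0.16 over all genes tested, so small values here are read against a shift of 0.16. On the deposited TPM the median of all genes was 0.52. There 17 members passed higher and 14 lower by limma, beside 7675 higher and 1939 lower of all 16208 genes. Against the WT-cM organoids alone 11 were higher (23.4% of all genes) and 16 lower (18.5%), and against the T-cM organoids alone 10 were higher (25.3%) and 15 lower (19.2%). These 2 comparisons share the tumoroid libraries. Of the 28, Slc1a5 and Slc43a1 did not pass against WT-cM organoids alone, and Slc1a1, Slc36a4 and Slc43a3 did not against T-cM organoids alone. Slc6a9 passed against WT-cM organoids alone.

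Transporters of the brush border were lower in tumoroids. Of the 8 tested members of this group 7 were lower (20.8% of all genes were), none was higher and 1 (Slc6a14) did not pass, and the median log2 fold change was -4.00. Slc6a19, the sodium-coupled carrier of neutral amino acids, stood at 393, 793 and 624 CPM in T-cM organoids, at 284, 361 and 318 CPM in WT-cM organoids, and at 2.27, 5.69 and 0.859 CPM in tumoroids 1 to 3. All 6 organoid libraries were far above the tumoroids, and the T-cM libraries were all above the WT-cM ones. The fitted level was 149.5-fold lower in tumoroids (log2 fold change -7.22, SE 0.64, edgeR adjusted p = 1.86e-05; -8.18 without tumoroid 2). Slc6a20a, which carries proline and other imino acids, stood at 229, 318 and 279 CPM in T-cM organoids and at 224, 314 and 296 CPM in WT-cM organoids, but at 0.227, 5.21 and 0.103 CPM in tumoroids. Tumoroid 2 was the highest of the 3 and still far below every organoid library (log2 fold change -7.21, SE 1.05, edgeR adjusted p = 0.000367), and the size of the fold rests on it, the log2 fold change of Slc6a20a being -10.74 without tumoroid 2. Its near-identical neighbour Slc6a20b was too low to be tested, with 84 counts over the organoid libraries and 1 over the tumoroids, a ratio of 60.4 (95% counting interval 10.5 to 2413), and reads may have been split between the 2 copies. Exons of Slc6a20a also overlap those of Ccr9, Gm17120 and Gm17200 on the other strand, which had at most 13, 5 and 4 counts in any library.

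The cystine carrier and the peptide carrier were lower too. Slc3a1, the heavy chain of the cystine and cationic amino acid carrier, stood at 286, 392 and 354 CPM in T-cM organoids, at 243, 327 and 288 CPM in WT-cM organoids, and at 16.8, 26.4 and 6.63 CPM in tumoroids. Every tumoroid was below every organoid library, by 18.9-fold on the fitted scale (log2 fold change -4.24, SE 0.42, edgeR adjusted p = 3.67e-05). Its light chain Slc7a9 averaged 94.3 ± 24.2 CPM in organoids (SD, n = 6) and stood at 7.12, 9.56 and 4.09 CPM in tumoroids, 13.6-fold lower (log2 fold change -3.77, SE 0.36, edgeR adjusted p = 2.7e-05). Both chains thus fell together. Slc15a1, which brings di- and tripeptides in with protons, stood at 50.6, 48.4 and 43.3 CPM in T-cM organoids, at 56.1, 89.6 and 77.7 CPM in WT-cM organoids, and at 0.453, 4.54 and 1.20 CPM in tumoroids. It was 28.4-fold lower in tumoroids, again with no overlap (log2 fold change -4.83, SE 0.62, edgeR adjusted p = 0.000161), and the log2 fold change was -6.12 without tumoroid 2.

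The other brush border members differed less. Slc36a1, a proton-coupled carrier of small neutral amino acids, averaged 38.3 ± 6.15 CPM in organoids (SD, n = 6) and 20.8 ± 2.56 CPM in tumoroids (SD, n = 3), 1.82-fold lower and without overlap (edgeR adjusted p = 0.000484), but not past the threshold by limma on the deposited TPM (adjusted p = 0.0748). Slc1a1, the epithelial glutamate and aspartate carrier, stood at 20.8, 2.16 and 10.2 CPM in tumoroids against 30.5 ± 6.08 CPM in organoids (log2 fold change -1.45, SE 0.53, edgeR adjusted p = 0.0454). This call was lost on leaving out tumoroid 3 (adjusted p = 0.0925) or any of the organoid pairs 1 to 3 (adjusted p = 0.108, 0.103 and 0.106), or with upper-quartile factors (adjusted p = 0.0645), and the log2 fold change was -2.28 without tumoroid 1. Slc6a14, which takes up both neutral and cationic amino acids, was low in all libraries, between 0.159 and 8.51 CPM in organoids and between 0.499 and 3.16 CPM in tumoroids, and did not pass (log2 fold change -0.41, SE 0.94, edgeR adjusted p = 0.747).

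At the basolateral membrane 3 of the 5 members were lower in tumoroids (20.8% of all genes were) and Slc7a6 was higher, while Slc43a1 had entered the test through tumoroids alone. Slc7a8, an exchanger of large neutral amino acids that pairs with Slc3a2, stood at 104, 128 and 135 CPM in T-cM organoids, at 139, 139 and 117 CPM in WT-cM organoids, and at 2.36, 5.47 and 0.447 CPM in tumoroids. It was 46.0-fold lower (log2 fold change -5.52, SE 0.63, edgeR adjusted p = 8.24e-05), and without tumoroid 2 the log2 fold change was -6.57. Slc7a7, which exports cationic amino acids in exchange for neutral ones, stood at 41.0, 38.3 and 31.1 CPM in tumoroids against 137 ± 30.4 CPM in organoids (SD, n = 6), 3.71-fold lower and without overlap (edgeR adjusted p = 3.64e-05). The facilitated carrier Slc43a2 averaged 112 ± 22.3 CPM in organoids and 19.6 ± 9.52 CPM in tumoroids (log2 fold change -2.52, SE 0.31, edgeR adjusted p = 0.000116). Slc7a6, an exchanger closely related to Slc7a7, went the other way, at 46.2, 59.5 and 43.4 CPM in tumoroids against 9.30 to 22.6 CPM in organoids, 2.95-fold higher (edgeR adjusted p = 0.000663). The 2 related exchangers thus moved in opposite directions, and their mean levels, 39.3 ± 4.98 TPM for Slc7a7 and 38.6 ± 8.71 TPM for Slc7a6, were close in tumoroids, while in organoids they were 102 ± 21.5 and 9.28 ± 3.31 TPM. Slc43a1 was low throughout, at 0.380 ± 0.356 CPM in organoids and 1.28 ± 1.06 CPM in tumoroids, and its groups overlapped (log2 fold change 1.91, SE 0.69). Its call by edgeR failed on leaving out tumoroid 1 (log2 fold change 1.09, adjusted p = 0.262), tumoroid 3 (0.0635) or any organoid pair (0.0543 to 0.139), and with limma voom (0.108) or on the TPM (0.0747). Exons of Slc7a7 overlap Oxa1l and those of Slc3a1 overlap Prepl on the other strand, and these neighbours did not pass (Oxa1l log2 fold change -0.12, adjusted p = 0.436; Prepl 0.30, adjusted p = 0.0608).

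**Figure D2:**
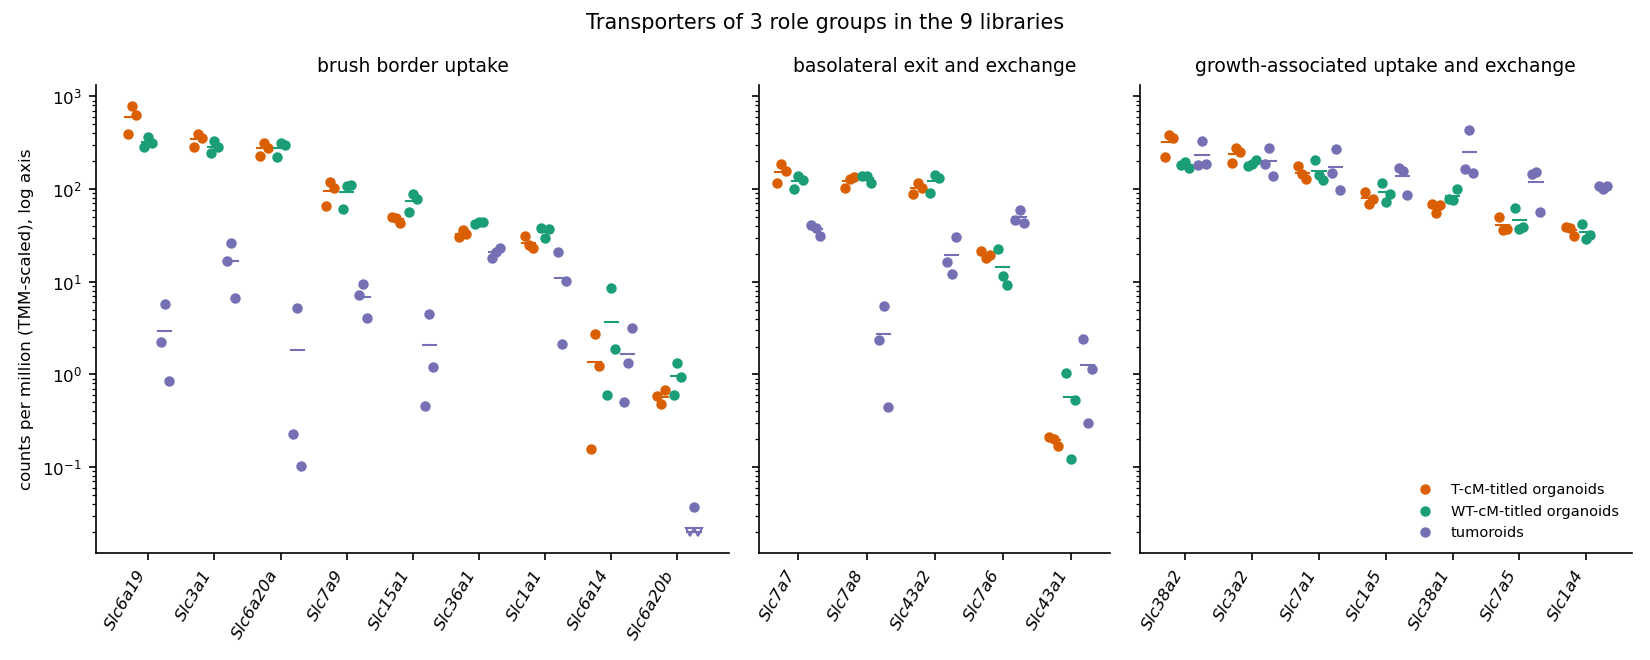
CPM (TMM-scaled, log axis) of the members of the brush border, basolateral and growth-associated groups in each of the 9 libraries, with T-cM organoids in orange, WT-cM organoids in green and tumoroids in purple. Short bars are means of 3 libraries, and open triangles mark libraries without a count. Slc6a19 falls from 284 to 793 CPM in organoids to between 0.859 and 5.69 CPM in tumoroids, whereas the growth-associated Slc1a4 rises to between 101 and 108 CPM.

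The lower brush border levels stood beside lower markers of absorptive enterocytes, of which 10 of 10 were lower in tumoroids. The sum of these markers was 93.5, 219 and 53.8 CPM in tumoroids 1 to 3, and the tumoroid with the highest sum, number 2, also had the highest Slc6a19, Slc6a20a, Slc3a1, Slc7a9 and Slc15a1. Of the other 3 tested brush border members, Slc1a1 was lowest in tumoroid 2, and Slc36a1 and Slc6a14 were highest in tumoroid 3. Of 12 markers of goblet, Paneth, enteroendocrine and tuft cells 6 were lower in tumoroids and 2 were higher, and their sum was 1427, 239.6 and 1306 CPM in tumoroids 1 to 3 and 2336 to 2941 CPM in organoids. Of 7 tested markers of gastric epithelium 3 were higher (Muc5ac, Muc6 and Gif, which reached 1 TPM in tumoroids alone) and 1 was lower, with a sum of 28, 21.7 and 14 CPM in tumoroids and 2.03 to 5.16 CPM in organoids. The part of these cell types in the result was not tested, and in bulk samples fewer cells of a type and less RNA per cell cannot be told apart. Genes that digest peptides moved the same way: of 14 brush border and cytosolic peptidases 12 were lower in tumoroids (20.8% of all genes were) and 0 were higher. Of the 12, Ggt1 and Tmprss15 reached 1 TPM in organoids alone. They entered the test through the cultures in which they were high and are no support for a direction. Ggt1, which splits glutathione at the cell surface, stood at 0.272, 0.186 and 0.309 CPM in tumoroids and at 154 to 304 CPM in organoids (log2 fold change -9.48, SE 0.34).

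Among growth-associated carriers 4 of 7 were higher in tumoroids (29.6% of all genes were), none was lower and 3 did not pass. Slc1a4, an exchanger of small neutral amino acids such as serine and alanine, stood at 39.3, 38.0 and 31.6 CPM in T-cM organoids, at 41.9, 29.1 and 31.7 CPM in WT-cM organoids, and at 108, 101 and 107 CPM in tumoroids. The 3 tumoroids lay close together and above every organoid library, 2.99-fold on the fitted scale (log2 fold change 1.58, SE 0.13, edgeR adjusted p = 1.48e-05). Slc38a1, a sodium-coupled glutamine carrier, stood at 165, 434 and 147 CPM in tumoroids against 55.1 to 99.7 CPM in organoids, 3.38-fold higher (log2 fold change 1.76, SE 0.30, edgeR adjusted p = 0.000989). Tumoroid 2 was the highest, and without it the log2 fold change of Slc38a1 was 1.07 (edgeR adjusted p = 0.0004). Slc7a5, the exchanger of leucine and other large neutral amino acids, stood at 147, 153 and 57.1 CPM in tumoroids against 35.8 to 62.4 CPM in organoids. Tumoroid 3 fell among the organoids, so the groups overlapped although the test passed (log2 fold change 1.46, SE 0.29, edgeR adjusted p = 0.00252). The glutamine carrier Slc1a5 behaved alike, at 169, 157 and 86.4 CPM in tumoroids against 68.4 to 116 CPM in organoids (log2 fold change 0.68, SE 0.22, edgeR adjusted p = 0.0293), and its call was lost without tumoroid 1 (adjusted p = 0.129), tumoroid 2 (0.104), organoid pair 2 (0.128) or organoid pair 3 (0.102).

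The other 3 growth-associated members overlapped between the groups. Slc3a2, the shared heavy chain, averaged 215 ± 40.9 CPM in organoids and 201 ± 70.7 CPM in tumoroids (log2 fold change -0.09, SE 0.21, edgeR adjusted p = 0.758). Slc38a2, a carrier of small neutral amino acids, averaged 251 ± 94.3 and 232 ± 82.0 CPM (log2 fold change -0.05, SE 0.23, edgeR adjusted p = 0.870), and the sign of both values turned with upper-quartile scaling or on the deposited TPM. Slc7a1, a carrier of arginine and lysine, averaged 154 ± 30.7 and 172 ± 87.3 CPM (log2 fold change 0.16, SE 0.29, edgeR adjusted p = 0.678). In each of Slc3a2, Slc38a2 and Slc7a1 tumoroid 2 was the highest tumoroid.

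Of the 4 tested carriers of lysosomes and endosomes 2, Slc15a4 and Slc36a4, were higher in tumoroids, beside 29.6% of all genes. Slc15a4, an exporter of histidine and dipeptides from these compartments, stood at 23.7, 26.6 and 23.4 CPM in tumoroids and at 12.6 to 16.4 CPM in organoids, 1.71-fold higher without overlap (edgeR adjusted p = 0.00165). Slc36a4 stood at 3.63, 5.28 and 12.8 CPM in tumoroids against 1.43 to 3.94 CPM in organoids (log2 fold change 1.62, SE 0.39, edgeR adjusted p = 0.00643), and T-cM organoids reached into the range of the tumoroids. Without tumoroid 3, the highest, the log2 fold change of Slc36a4 was 0.90 (edgeR adjusted p = 0.0382), and against T-cM organoids alone Slc36a4 did not pass (1.13, edgeR adjusted p = 0.0759). Slc38a7, a lysosomal exporter of glutamine, did not pass (log2 fold change 0.37, SE 0.20, edgeR adjusted p = 0.151).

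Of the 4 tested carriers of GABA, monoamines and glycine, Slc6a4 was lower in tumoroids and Slc6a9 did not pass, and Slc6a3 and Slc6a12 had each entered the test through 1 kind of culture alone. Of the 3 tested carriers of taurine, creatine and proline 2 were lower, beside 20.8% of all genes. Slc6a6, the taurine transporter, stood at 688, 1125 and 1109 CPM in T-cM organoids, at 589, 686 and 620.2 CPM in WT-cM organoids, and at 151, 181 and 189 CPM in tumoroids. It was 4.52-fold lower in tumoroids (log2 fold change -2.18, SE 0.20, edgeR adjusted p = 2.58e-05). The creatine transporter Slc6a8 averaged 179 ± 34.5 CPM in organoids and 104 ± 26.8 CPM in tumoroids, with overlap (log2 fold change -0.79, SE 0.22, edgeR adjusted p = 0.0151). Slc6a4, the serotonin transporter that enterocytes use to clear serotonin, stood at 18.9, 20.9 and 2.06 CPM in tumoroids against 50.3 to 70.6 CPM in organoids (log2 fold change -2.11, SE 0.56, edgeR adjusted p = 0.0112). Slc6a3, known as the dopamine transporter, had 1026 counts over the 6 organoid libraries and 2 over the 3 tumoroid libraries, a ratio of 369 after scaling by depth (95% counting interval 102 to 3049). Markers of neurons and glia, a source outside the epithelium, summed to 7.33 to 12.5 CPM in organoids and 5.56 to 8.14 CPM in tumoroids, with Sox10 at 0 throughout. The glutamate transporter Slc1a3, best known from glia, stood at 3.01 to 10.3 CPM in organoids and at 0.227, 0.0744 and 0 CPM in tumoroids (log2 fold change -5.83, SE 0.79, -7.07 without tumoroid 1 and -5.23 without tumoroid 3), and Slc7a15 at 2.85 ± 1.17 CPM in organoids with 4 counts over the tumoroids (ratio 57.1, 95% counting interval 22.1 to 211), its fitted log2 fold change of -5.60 being -6.69 without tumoroid 3.

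Some members had few or no counts in organoids. Slc6a12, Slc38a4, Slc7a3 and Slc43a3 reached 1 TPM in tumoroids alone, so the filter favoured a higher level there, and their values are a description. Of the 64, 12 had 0 counts in every organoid library and 6 had 0 in every tumoroid library. Slc6a12, which carries betaine and GABA, had 0 counts in the organoids and stood at 0.408, 3.61 and 0.687 CPM in tumoroids, at least 58.4-fold higher with a floor of 3 counts over the organoid group, and at least 20.5-fold without tumoroid 2, which held 97 of its 126 counts. Slc38a4, another carrier of small neutral amino acids, had 0 counts in the organoids and stood at 0.952, 0.892 and 1.17 CPM in tumoroids, at least 36.6-fold higher. The 3 tumoroids were close to each other for Slc38a4 and spread for Slc6a12. The cationic amino acid carrier Slc7a3 stood at 2.49, 14.6 and 2.34 CPM in tumoroids against 0.304 to 1.35 CPM in organoids, 8.48-fold apart on the fitted scale (log2 fold change 3.08), but without tumoroid 2 the log2 fold change of Slc7a3 was 1.64, and without organoid pair 3 it was 3.82. Slc43a3, a carrier of purine bases rather than of amino acids, stood at 2.13, 3.61 and 0.0343 CPM in tumoroids and at 0 to 0.395 CPM in organoids (log2 fold change 3.66, SE 1.10), and its call by edgeR was lost without tumoroid 2 (log2 fold change 2.78, adjusted p = 0.0874), organoid pair 1 (0.0765) or organoid pair 2 (0.0799), and with limma voom (0.175). Without organoid pair 3 the log2 fold change of Slc43a3 was 5.82. Markers of mesenchymal cells summed to 8.84, 3.12 and 81.9 CPM in tumoroids 1 to 3 and to 0.678 to 1.64 CPM in organoids, with Col3a1 and Lum at 0 in every library, and 8 immune markers to 7.52 to 26.7 CPM and 0.879 to 4.96 CPM, with Cd3e, Itgam and Tyrobp at 0. Of the 3 markers tested in each list 2 were higher in tumoroids (Col6a1 and Acta2, and Cd68 and Csf1r), of which Col6a1 had reached 1 TPM in tumoroids alone. Endothelial markers summed to 3.17, 1.41 and 6.05 CPM in tumoroids and to 1.09 to 1.65 CPM in organoids, and of the 2 tested, which both reached 1 TPM in tumoroids alone, Cdh5 was higher and Tek did not pass. Their part in these low-level differences was not tested.

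**Figure D3:**
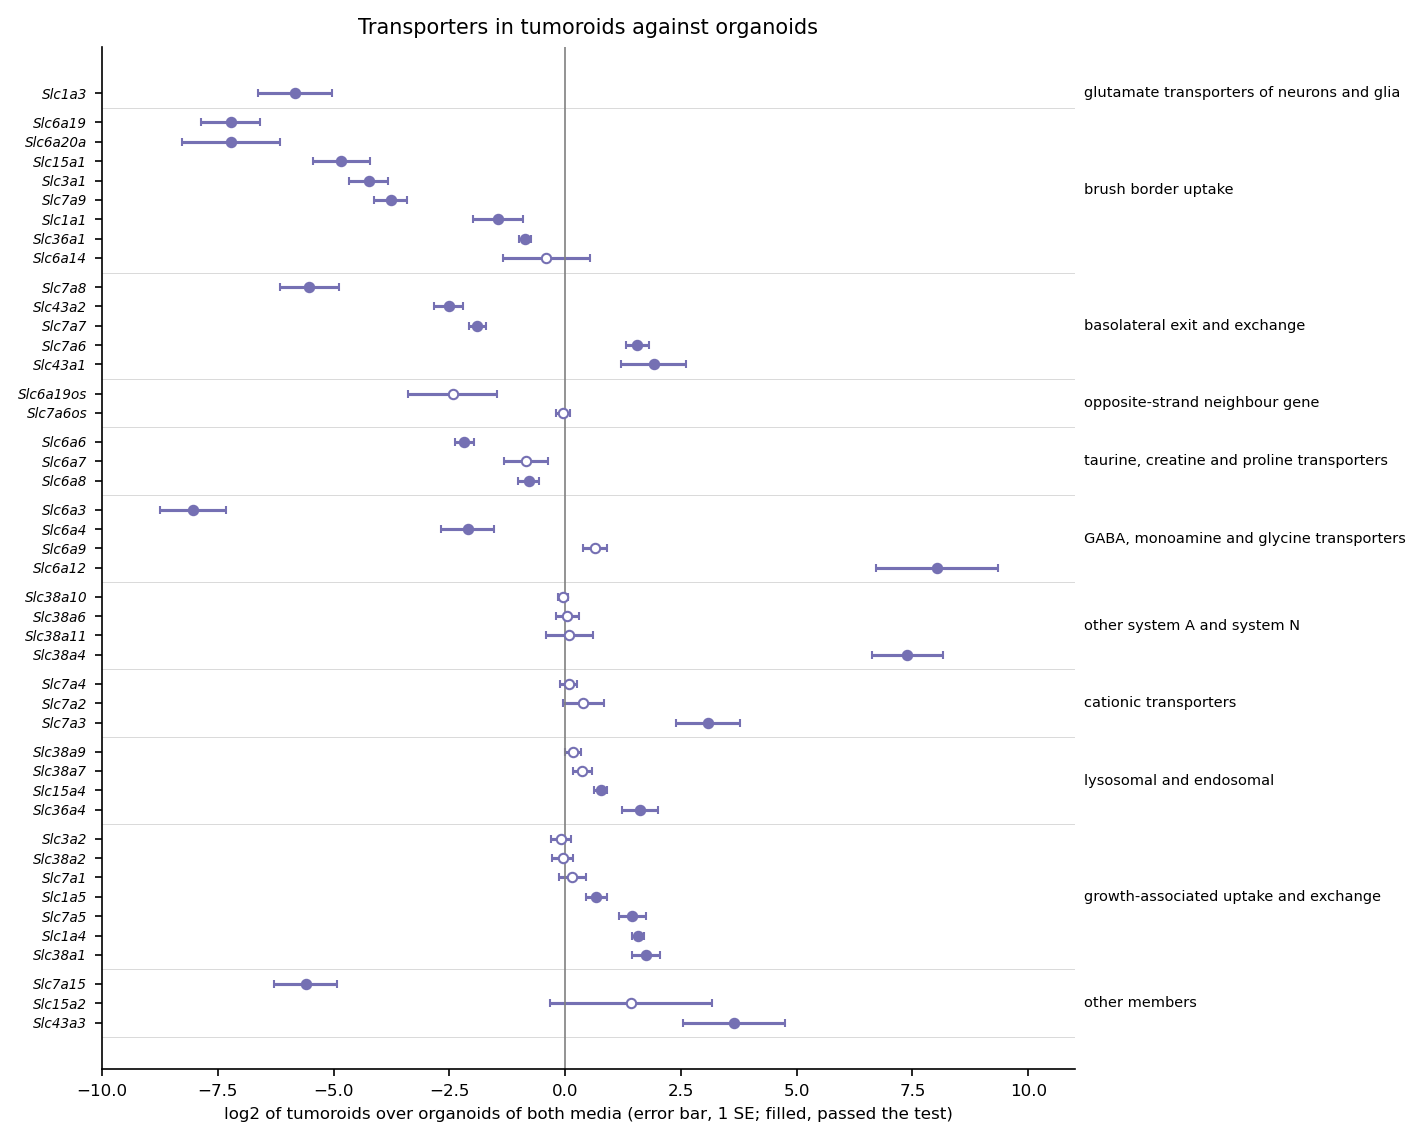
Fitted log2 fold change of each of the 44 tested members in 3 tumoroid libraries against 6 organoid libraries, grouped by role, with bars of 1 SE and filled points for members that passed edgeR's test. The brush border group lies to the left, with Slc6a19 at -7.22, and most of the growth-associated group to the right, with Slc38a1 at 1.76. The fitted values of Slc6a12 and Slc38a4, which had no count in organoids, depend on the prior count and are no bound.

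The comparison of the 2 organoid groups asked how normal cells in T-cM differ from those in WT-cM. Per the study's methods WT-cM was conditioned from medium with R-spondin, whereas T-cM came from tumoroids grown without it. The T-cM could also be conditioned for longer. The cells that made the medium, R-spondin and the time of conditioning therefore cannot be told apart between the media. Of the 44 members 18 passed edgeR's test in the paired fit, 10 higher in T-cM organoids (5.03% of all genes were) and 8 lower (5.05% of all genes). With a fold change above 2 as well, 1 was higher (Slc6a9, against 0.673% of all genes) and 2 were lower (Slc6a3 and Slc6a14, against 0.432%). The 2 groups did not overlap for 10 of the 44, against 10.4% of all genes, and for 9 of the 18 that passed. The median log2 fold change was -0.02 over the members and 0 over all genes. In 16 of the 18 all 3 pairs went the same way. The 18 were chosen by a test on these same libraries, so this and the 9 without overlap are a description and no support. Without the pairing, or without organoid pair 2, 0 of the 44 passed edgeR's test at the adjusted p, 12 and 18 having an unadjusted p under 0.05, and without pair 3 the number was 7. Pair 1 had the ratio nearest to 1 for 15 of the 18, as it did for 1297 of the 1634 genes that passed in all (after adding 0.1 CPM), and without it 21 members passed.

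Slc6a9, Slc6a19, Slc38a2 and Slc6a6 were higher in T-cM organoids. Slc6a9, the glycine transporter, stood at 50.3, 100.4 and 93.3 CPM in T-cM organoids and at 33.1, 32.7 and 35.9 CPM in WT-cM organoids. The groups did not overlap, T-cM organoid 1 being the nearest to the WT-cM libraries, and the level was 2.33-fold higher (log2 fold change 1.22, SE 0.12, edgeR adjusted p = 5.8e-08). Tumoroids stood at 57.1, 119 and 71.6 CPM, higher than WT-cM organoids by 1.28 on the log2 scale (edgeR adjusted p = 0.00824) with a difference of 0.02 from T-cM organoids (edgeR adjusted p = 0.968). Exons of Slc6a9 overlap those of B4galt2, Ccdc24 and Gm17114 on the other strand. B4galt2 had 2 to 11 counts in organoids and 53 to 150 in tumoroids, with a log2 fold change of 0.16 between the media (edgeR adjusted p = 0.950) and 3.56 against tumoroids, and Ccdc24 and Gm17114, at most 4 and 0 counts in any library, were not tested. Slc6a19, with the values given above, was 1.83-fold higher in T-cM organoids (log2 fold change 0.87, SE 0.09, edgeR adjusted p = 1.28e-07). Slc38a2 stood at 223, 383 and 357 CPM against 182, 194 and 168 CPM, without overlap and 1.75-fold higher (log2 fold change 0.80, SE 0.10, edgeR adjusted p = 2.98e-06). Slc6a6 was 1.52-fold higher, also without overlap (log2 fold change 0.61, SE 0.09, edgeR adjusted p = 2.08e-05).

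Other rises were seen in both heavy chains, in an exchanger and in a lysosomal carrier. Slc3a2 stood at 193, 278 and 254 CPM in T-cM organoids and at 177, 186 and 205 CPM in WT-cM organoids, higher in 3 of 3 pairs although T-cM organoid 1 fell among the WT-cM libraries (log2 fold change 0.35, SE 0.08, edgeR adjusted p = 0.0057). Slc3a1 rose by 0.28 (SE 0.07, edgeR adjusted p = 0.0131) and Slc7a7 by 0.33 (SE 0.08, edgeR adjusted p = 0.00601) on the log2 scale, in 3 of 3 pairs each. Slc7a9, the partner of Slc3a1, did not pass (log2 fold change 0.06, SE 0.08), and neither did Slc7a8, 1 of the partners of Slc3a2 (-0.10, SE 0.09), whereas Slc7a7, which also pairs with Slc3a2, did. Slc36a4 stood at 2.27, 3.94 and 3.72 CPM in T-cM organoids and at 1.43, 1.95 and 1.68 CPM in WT-cM organoids, without overlap (log2 fold change 0.97, SE 0.24, edgeR adjusted p = 0.00713). Slc7a6 (log2 fold change 0.54, SE 0.15, edgeR adjusted p = 0.0168) and Slc1a3 (0.75, SE 0.25, edgeR adjusted p = 0.0492) were higher in pairs 2 and 3 and lower in pair 1, and passed in 4 and 2 of their 12 alternatives. Without pair 1 the log2 fold change of Slc1a3 was 1.39.

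**Figure D4:**
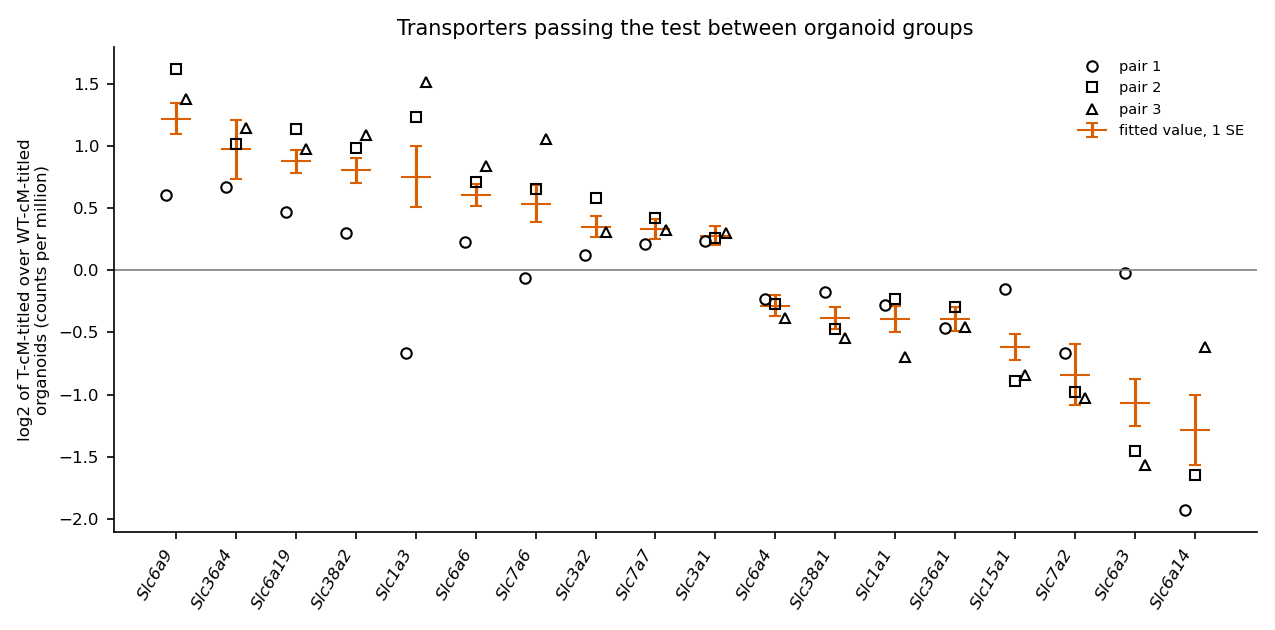
Log2 ratio of T-cM over WT-cM organoids (CPM) in each of the 3 pairs (open symbols) for the 18 members that passed edgeR's test, with the fitted value and 1 SE in orange. Slc6a9, at 1.22, is the highest and Slc6a14, at -1.28, the lowest, and pair 1 lies nearest to 0 for 15 of the 18.

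The peptide carrier and several proton- and sodium-coupled carriers were lower in T-cM organoids. Slc15a1 was 1.53-fold lower, the 3 T-cM libraries (43.3 to 50.6 CPM) lying below the 3 WT-cM libraries (56.1 to 89.6 CPM), with edgeR adjusted p = 0.000211. Slc36a1 also separated the groups, at 30.5, 36.0 and 32.5 CPM against 42.1, 44.3 and 44.5 CPM (log2 fold change -0.39, SE 0.10, edgeR adjusted p = 0.00705). Slc38a1 stood at 68.9, 55.1 and 68.1 CPM in T-cM organoids and at 78.0, 76.4 and 99.7 CPM in WT-cM organoids, without overlap (log2 fold change -0.39, SE 0.09, edgeR adjusted p = 0.00394). Slc1a1 fell by 0.39 (SE 0.11, edgeR adjusted p = 0.0158) and Slc6a4 by 0.28 (SE 0.09, edgeR adjusted p = 0.034) on the log2 scale. Slc6a3 stood at 4.97, 5.29 and 6.20 CPM in T-cM organoids and at 5.06, 14.5 and 18.3 CPM in WT-cM organoids, close to each other in pair 1 and lower with T-cM in the other two (log2 fold change -1.07, SE 0.19, edgeR adjusted p = 0.000297). On the annotation (GENCODE M21, GRCm38) Slc6a3 lies on chromosome 13 from 73536747 to 73578672 on the plus strand and Slc6a19 from 73679745 to 73704865 on the minus strand, 101072 bases apart, and the 2 moved in opposite directions between the media. Slc6a14 (log2 fold change -1.28, SE 0.28, edgeR adjusted p = 0.00307) and the cationic carrier Slc7a2 (-0.84, SE 0.25, edgeR adjusted p = 0.0252) were lower in 3 of 3 pairs but at or below 8.51 and 4.62 CPM in every organoid library.

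The 8 tested brush border members were therefore divided between the media, with 2 higher, 4 lower and 2 that did not pass. This count and those of markers below are to be read beside 5.03% of all genes higher and 5.05% lower. Slc6a20a averaged 275 ± 44.7 CPM in T-cM and 278 ± 47.8 CPM in WT-cM organoids (SD, n = 3 each). Of 10 enterocyte markers 1 was higher and 4 were lower in T-cM organoids, and their sum, 17995 to 26286 CPM in T-cM and 16328 to 32139 CPM in WT-cM organoids, overlapped. Of 12 markers of goblet, Paneth, enteroendocrine and tuft cells 0 were higher and 4 lower in T-cM organoids by edgeR (Defa17, Mmp7, Chga and Chgb), with overlapping sums of 2336 to 2588 CPM and 2435 to 2941 CPM. Among 7 tested gastric markers 1 was higher in T-cM organoids, with a fold change above 2, and 0 were lower. The gastric sums, 2.06 to 5.16 CPM in T-cM and 2.03 to 3.04 CPM in WT-cM organoids, overlapped. Markers of neurons and glia summed to 7.33 to 10.4 CPM in T-cM and 10.5 to 12.5 CPM in WT-cM organoids, without overlap, and 1 of the 5 tested (S100b) was lower. Their part in the differences between the media, among them the lower Slc6a3 and Slc6a4, was not tested. Tmem27, the partner of Slc6a19 in the kidney, had 5, 177 and 185 counts in T-cM organoids and 2, 6 and 7 counts in WT-cM organoids (log2 fold change 4.81, SE 0.33). The rise of Tmem27 was thus carried by T-cM organoids 2 and 3, and tumoroids had 0, 1 and 0 counts. At such counts Tmem27 may have reached 1 TPM in T-cM organoids alone, so its values are a description.

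The members left passed neither test. Slc38a10 averaged 117 ± 5.05 CPM in organoids and 113 ± 9.32 CPM in tumoroids, the highest level among them, with log2 fold changes of -0.04 (SE 0.08) between the media and -0.04 (SE 0.10) against tumoroids, the latter turning to 0.47 by limma on the deposited TPM (adjusted p = 0.00594). The cationic carrier homologue Slc7a4 stood at 16.6 to 17.7 CPM in T-cM and at 20.2 to 22.0 CPM in WT-cM organoids, which did not overlap, but the test did not pass (log2 fold change -0.31, SE 0.11, edgeR adjusted p = 0.0753). Slc38a6, Slc38a9, Slc38a11, Slc6a7, Slc6a19os and Slc7a6os also passed neither test, with log2 fold changes from -1.03 to 0.17 between the media and from -2.43 to 0.17 against tumoroids. The 20 members too low to test included all 5 of the other neutral carriers of the Slc6 family, of which Slc6a15 was the highest per length, with 0 counts in organoids and 6, 1 and 10 in tumoroids, at least 7.88-fold higher with the floor of 3 counts (at least 5.18-fold without tumoroid 3). Slc38a3, a glutamine carrier, was the best covered of the 20 in tumoroids, with 5, 16 and 28 counts there and 1 to 6 in organoids.

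The peptide carrier Slc15a2, typical of kidney, was present in some libraries and absent from others without regard to the group. It had 0, 0 and 63 counts in T-cM organoids, 0, 0 and 52 in WT-cM organoids, and 0, 5 and 223 in tumoroids. Only pair 3 of the organoids carried it, in both media, and it passed neither test (edgeR adjusted p = 0.474 between the media and 0.529 against tumoroids).

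Genes of amino acid metabolism around the carriers were counted in the same fits, where 29.6% of all genes were higher and 20.8% lower in tumoroids, and 5.03% higher and 5.05% lower between the media. Of 24 genes of the ATF4 and amino acid response 14 were higher and 2 lower in tumoroids (median log2 fold change 0.94), among them Pycr1, an enzyme of proline synthesis (2.77, SE 0.21, edgeR adjusted p = 6.91e-06), and Nupr1, a stress-induced factor (3.87, SE 0.37, edgeR adjusted p = 2.85e-05). Atf4 itself did not pass (-0.22, SE 0.24, edgeR adjusted p = 0.474), and neither did Atf5, Ddit3, Trib3, Chac1, Asns, Mthfd2 and Cebpg. In tumoroid 3 Atf4, Asns, Trib3 and Chac1 stood below every organoid library, whereas Ddit4 and Nupr1 stood above every one. Between the media 0 of the 24 were higher and 1 lower (Aldh18a1, log2 fold change -0.30, SE 0.07, edgeR adjusted p = 0.00593). Of 20 cytosolic aminoacyl-tRNA synthetases 4 were higher and 2 lower in tumoroids and 0 passed between the media by edgeR. Of 29 genes that sense amino acids upstream of mTORC1, 4 were higher and 9 lower in tumoroids, and 3 were higher between the media, led by Sesn3 (log2 fold change 0.71, SE 0.14, edgeR adjusted p = 0.000773). Of 16 enzymes of glutamine and glutamate 7 were higher and 6 lower in tumoroids, and 3 were lower between the media. Of 14 peptidases 4 were higher and 5 lower between the media. Cndp2, a cytosolic dipeptidase, stood at 575, 1443 and 1162 CPM in T-cM organoids and at 448, 729 and 605 CPM in WT-cM organoids (log2 fold change 0.78, SE 0.09, edgeR adjusted p = 7.33e-07). Of 16 partners and carriers of other families 3 were higher and 3 lower between the media, and 2 were higher and 8 lower in tumoroids, 1 of the 2 being Slc26a1, a carrier of sulphate and other anions rather than of amino acids. In these lists Slc26a1, Fgf21 and Aldh4a1, all 3 higher, reached 1 TPM in tumoroids alone, and Ggt1, Tmprss15 and Tmem27, all 3 lower, in organoids alone. Slc16a10, the basolateral carrier of aromatic amino acids, was lower in both, at 94.0 to 98.8 CPM in T-cM organoids, 119 to 159.8 CPM in WT-cM organoids and 14.9 to 18.8 CPM in tumoroids.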

How the data were processed

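RNA of 9 libraries (3 T-cM organoid, 3 WT-cM organoid and 3 tumoroid) was sequenced from a stranded polyA library kit. The authors aligned paired reads to mm10 with STAR and deposited raw counts per gene on the Gencode vM13 annotation. The counting tool and its strand setting were not given in the sources used here, so reads of 12 tested members cannot be told apart from those of genes on the other strand whose exons they overlap. The authors also deposited TPM, a level corrected for gene length with the same sum in each library. The gene lengths they used were not given either.

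Groups followed the sample titles. From the deposited counts, genes with at least 1 TPM in at least 1 library were scaled with TMM and tested with edgeR 4.0.16 in R 4.3.3 (quasi-likelihood F test, legacy form), with p-values adjusted by Benjamini-Hochberg over all 16208 genes. A member passed at an adjusted p under 0.05. The organoid media were compared over 6 libraries with the replicate pair as a blocking term, and tumoroids over all 9 libraries without a block. The tumoroid test and the SDs over n = 6 thus counted paired organoid libraries as separate ones. This can overstate replication on the organoid side, which held 3 pairs. Deviations of same-numbered organoid libraries from their group means correlated at 0.236 to 0.412, over 0.1 in every pair, so the numbers were taken to pair them. Per-library values are CPM of TMM-scaled libraries, and fold changes are fitted ones. CPM values carry the counting error of their depth, 95% counting intervals and floors of 3 counts cover that error only, and p-values measure the spread between these libraries.

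The members, their roles and the lists (ATF4 and amino acid response, tRNA synthetases, amino acid sensing upstream of mTORC1, glutamine and glutamate enzymes, peptidases, partners and other carriers, and markers of epithelium, enterocytes, other mature intestinal cells, gastric epithelium, mesenchymal, immune, endothelial, neuronal and glial cells) were chosen with earlier results of these data known. Named were all members of the brush border, basolateral and growth-associated groups, the member of highest mean TPM in each other role, up to 12 passing members a direction by smallest p, and up to 3 genes of a list by smallest p. Naming Slc15a2, Slc38a3, Slc6a8, Tmem27, Slc26a1, Ddit4, the genes of the ATF4 list that did not pass, the overlapping neighbours, the markers and the list genes that reached 1 TPM in 1 kind of culture was decided after their values were seen. Positions were taken from GENCODE M21 (GRCm38). The edgeR step, tested on simulated counts of 16208 genes for the comparison of media, recovered 94 of 100 genes changed 2-fold and 100 of 100 changed 4-fold, with 10 false calls. Alternatives were limma 3.58.1 (voom, and log2 of TPM + 1), DESeq2 1.42.0, the newer edgeR form, RLE and upper-quartile factors, 2 other filters, the block left out or added, and leaving out each replicate. Leaving out each tumoroid for the lower bounds was added after the data were seen.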

Additional observations from a re-analysis of the deposited data

How the results depend on the processing

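Of the comparisons, that between the organoid media depended most on the processing, and the cause was not tested. Against 18 of the 44 members that passed, the count over the same 44 was 9 with limma voom, 11 with DESeq2, 0 with limma on log2(TPM + 1) (16 at an unadjusted p under 0.05), 0 with no replicate block (12 at an unadjusted p under 0.05) and 0 to 21 on leaving out each replicate pair. The count that also passed the fold threshold, 3, was 1 with limma voom, 0 on TPM, 0 with no replicate block, and 0 to 8 on leaving out each pair. Without pair 2, whose removal gave the 0, 1 of all 16208 genes passed. Slc1a3 passed in 2 of its 12 alternatives, Slc7a6 in 4, Slc6a4 and Slc7a2 in 5 each and the other 14 in 6 to 9. In the tumoroid comparison 24 to 31 members passed under the alternatives that tested 43 or 44 of them, and 36 of 64 with no TPM filter. Tumoroids and organoids share only replicate numbers (same-numbered deviations correlated at -0.107 to 0.162), and the replicate block added there gave 28 members, Slc43a3 being lost (log2 fold change 3.46, adjusted p = 0.0595) and Slc6a9 gained (0.61, adjusted p = 0.0278).

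Signs turned among values that had not passed, and of the turned values 1 passed, that of Slc38a10 on TPM (0.47, limma adjusted p = 0.00594). Between the media Slc6a20a (0.0015) turned to -0.00054 with DESeq2, -0.00053 with RLE factors, -0.020 with upper-quartile factors and -0.0014 with no TPM filter, and ran from -0.022 to 0.029 on leaving out pairs. Leaving out pairs gave ranges of -0.068 to 0.013 for Slc15a4, -0.043 to 0.20 for Slc1a4, -0.084 to 0.022 for Slc38a10, -0.0096 to 0.045 for Slc38a7, -0.10 to 0.040 for Slc7a1, -0.054 to 0.51 for Slc7a3, -0.26 to 0.058 for Slc7a8 and -0.0029 to 0.13 for Slc7a9. Against tumoroids, upper-quartile factors and TPM gave 0.070 and 0.47 for Slc38a10, 0.053 and 0.43 for Slc38a2, and 0.023 and 0.38 for Slc3a2, while Slc6a14 turned to 0.050 with limma voom, 0.13 on TPM and 0.020 with the replicate block. Leaving out replicates gave -0.40 to 0.093 for Slc38a2, -0.41 to 0.10 for Slc3a2, -1.27 to 0.83 for Slc6a14, -0.33 to 0.43 for Slc7a1 and -0.19 to 0.25 for Slc7a4. Depth limits the members near 1 CPM, where 3 counts stood for up to 0.204 CPM.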
